A study of Brassica rapa subsp. chinensis with 6 samples.

Results

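The genes described here are named for enzymes at the entry of the flavonoid pathway in pakchoi, Brassica rapa subsp. chinensis, a leafy cabbage. They are the genes of a deposited table whose matched protein name contains chalcone, flavonoid 3 or 4-coumarate. This rule gave 10 genes of the 2958 in the table. By name they were 4 chalcone synthases, 2 chalcone isomerases, 1 flavonoid 3'-hydroxylase and 3 genes named for 4-coumarate CoA ligase. Strain 564, the wild type, was compared with strain 564Y, a chlorotic mutant, by RNA sequencing of the shoot (everything above ground) at the trifoliate stage, with 3 libraries per strain. No treatment is labelled for either strain, and the labels do not name the mutated gene. The labels call the libraries of a strain independent biological replicates.

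Flavonoids are phenolic pigments and ultraviolet screens that collect mainly in the outer cell layers of leaves, and their synthesis is known to be raised by light. Phenylalanine is first turned into cinnamate and then coumarate, which 4-coumarate CoA ligase activates. Chalcone synthase joins the activated coumarate with malonyl units to form a chalcone, the first flavonoid skeleton. Chalcone isomerase closes the ring to a flavanone, and flavonoid 3'-hydroxylase adds a hydroxyl group to the B ring, which sets the type of flavonol and anthocyanin made. The same activated coumarate also feeds the monolignol branch, which makes the units of lignin.

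The authors listed in this table only genes they called as different between the strains. The listed genes held on average 1348884 reads per wild type library and 1677855 per mutant library, and the full depth is not known. Each strain has a mean read count and a base mean, which is the mean of counts scaled by size factors. Whole counts of the single libraries were worked out from these means where exactly 1 set of whole numbers matched both, which held for 2619 genes (88.5%). Wild type counts were recovered for all 10 members and mutant counts for 8. Libraries recovered in this way carry the letters A, B and C in falling order of size factor, because nothing ties them to the labelled replicate numbers. Values below are normalised reads, which are counts divided by the size factor. In bulk tissue, fewer cells of a type and less RNA per cell cannot be told apart.

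In the authors' deposited table, 8 of the 10 members were lower in the mutant and 2 were higher. Of all genes listed, 40.3% were lower and 59.7% were higher. The 8 lower members were all 4 chalcone synthases, both chalcone isomerases, the flavonoid 3'-hydroxylase and 1 ligase gene, while the 2 higher members were the other ligase genes. The median log2 ratio of the members was -1.47, against 1.15 for the 2810 genes of the table with reads in both strains. Among lower genes alone it was -1.68 for the members and -1.54 for the table. At an absolute log2 ratio of 2 or more, 2 members were lower, against 13.3% of all genes listed, and 0 were higher, against 24.6%. At an adjusted p of at most 1e-10, 6 members were lower, against 22.9%, and 0 were higher, against 31.7%. The 8 members recovered in both strains had groups of libraries that did not overlap. That was also true of 100% of the recovered genes, since the table was selected for this difference.

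**Figure D1:**
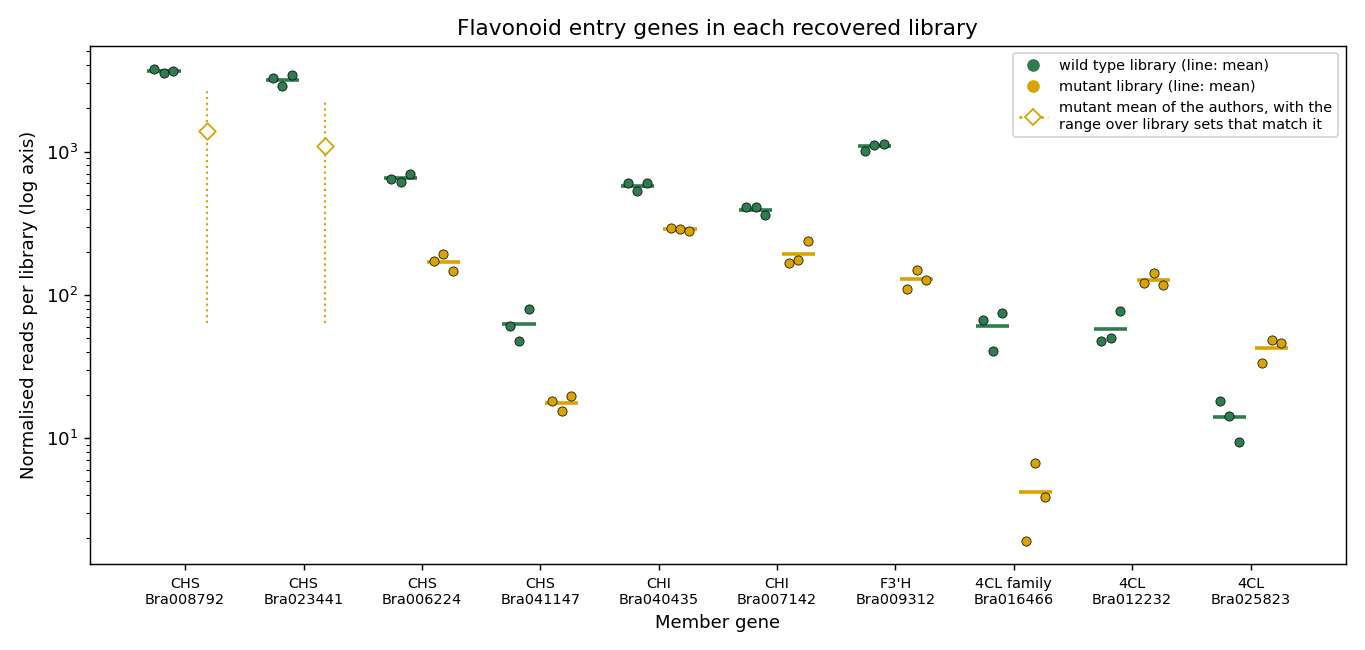
Normalised reads per recovered library (log axis) for the 10 members, with green points for the 3 wild type and yellow points for the 3 mutant libraries, and lines at the group means. Open diamonds with dotted bars mark the authors' mutant mean and the range over the 8 sets of library counts that match it for the most abundant chalcone synthases. Wild type points lie above mutant points except for the ligases Bra012232 and Bra025823.

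Chalcone synthase, the committing enzyme of the pathway, had the most abundant transcripts of the group and fell in all 4 listed copies. Any copy of a chalcone synthase or isomerase that the authors did not call is absent from their table. Bra008792 had 3741, 3555 and 3664 normalised reads in wild type libraries A, B and C (mean 3653 ± 93.5, SD, n = 3). The authors' deposited table gives it a mean of 1390 in the mutant, a 2.63-fold fall (log2 ratio -1.39, adjusted p = 5.78e-51). The 3 wild type libraries lay close together, with a coefficient of variation of 2.56%. In the mutant, 8 sets of library counts matched its means. Library C lay between 1276 and 1433 in all of them, and no mutant library exceeded 2673 in any.

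Bra023441, matched to a Brassica napus chalcone synthase, was nearly as abundant. It had 3238, 2887 and 3406 normalised reads in the wild type (mean 3177 ± 265, SD, n = 3). The authors' deposited table gives 1089 in the mutant, a 2.92-fold fall (log2 ratio -1.54, adjusted p = 7.87e-42). Its mutant counts also matched 8 sets, with library C between 886.0 and 1043 and no library above 2317. In every one of these sets the mutant libraries stayed below the lowest wild type library.

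The remaining chalcone synthases were less abundant, with somewhat larger estimates of the fall. Bra006224, matched to chalcone synthase 1 of Brassica rapa subsp. rapa, had 647.7, 616.5 and 696.1 normalised reads in wild type shoots and 172.9, 191.5 and 145.6 in the mutant. The strains did not overlap, and the fall was 3.84-fold (edgeR log2 change -1.94, SE 0.13, 95% interval -2.21 to -1.67). Bra041147 had 60.7, 47.8 and 79.1 normalised reads in wild type shoots and 18.3, 15.4 and 19.5 in the mutant. It fell 3.53-fold (edgeR log2 change -1.81, SE 0.29, 95% interval -2.42 to -1.21). This interval includes the log2 ratios of Bra008792 and Bra023441, so a larger fall is not shown for this copy. The coding length of Bra041147 is 630 bases, against 1185 to 1191 in the other copies. Its gene model is thus shorter than a complete chalcone synthase. The authors' deposited table gives adjusted p = 5.60e-46 for Bra006224 and 2.20e-06 for Bra041147.

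The order of the copies was the same in both strains. Summed over the 4 listed copies, the base means were 7546 in wild type shoots and 2666 in the mutant, a 2.83-fold fall. Copies that were not called are not in this sum, so it does not give the total of the step. Bra008792 made up 48.4% of the sum in wild type shoots and 52.1% in the mutant, and Bra023441 made up 42.1% and 40.8%. Bra006224 went from 8.66% to 6.37% and Bra041147 from 0.829% to 0.665%. Chalcone synthase copies are alike in sequence, and the sources used here do not say how a read that fits several of them was assigned, so the split between copies is less certain than their sum.

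Both genes named for chalcone isomerase fell, by the smallest amounts among the members. Bra040435 is matched to an Arabidopsis protein and has a coding length of 864 bases, against 756 in Bra007142. The name alone does not show that both act in the flavonoid pathway. Bra040435 had 601.2, 528.0 and 606.6 normalised reads in wild type shoots and 294.9, 287.7 and 281.3 in the mutant. It fell 2.01-fold (edgeR log2 change -1.01, SE 0.11, 95% interval -1.25 to -0.77). Its mutant libraries were the most even of all members, with a coefficient of variation of 2.36%. Bra007142, named chalcone-flavanone isomerase 1, had 408.9, 410.0 and 360.0 in wild type shoots and 168.1, 174.1 and 238.4 in the mutant, where library C stood above the others. It fell 2.03-fold (edgeR log2 change -1.02, SE 0.15, 95% interval -1.33 to -0.71). The authors' deposited table gives adjusted p = 3.25e-14 for Bra040435 and 1.32e-11 for Bra007142. Both log2 ratios lie just past the table's limit of 1, and both intervals include smaller changes. Leaving out wild type library A put both genes under that limit, and each of the other libraries put 1 of them under it.

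Flavonoid 3'-hydroxylase, a cytochrome P450, fell more than any chalcone enzyme. Bra009312 had 1013, 1114 and 1132 normalised reads in wild type shoots and 110.5, 149.1 and 128.0 in the mutant. The lowest wild type library thus lay far above the highest mutant library, and the mean fell from 1086 ± 64.1 to 129.2 ± 19.3 (SD, n = 3 each), an 8.41-fold fall. The edgeR log2 change was -3.07 (SE 0.12, 95% interval -3.33 to -2.81), and the authors' deposited table gives adjusted p = 2.01e-123. Among the 1192 lower genes of the table it ranked 191 by size of change and 20 by adjusted p. By the same measure of size the chalcone synthases ranked 412 to 739 and the chalcone isomerases 1162 and 1183.

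The genes named for 4-coumarate CoA ligase did not move together. In Arabidopsis this name covers the ligases of the phenylpropanoid pathway and also relatives that activate other acids, and the name alone does not separate them. Bra016466, called a ligase family protein in its match, had 66.8, 40.7 and 74.9 normalised reads in wild type shoots and 1.92, 6.74 and 3.91 in the mutant. All 3 mutant libraries were close to 0, at 2, 7 and 4 reads. The fall was 14.5-fold (edgeR log2 change -3.82, SE 0.42, 95% interval -4.70 to -2.94), the largest among the members, with the widest interval of those recovered. The authors' deposited table gives Bra016466 adjusted p = 2.38e-10.

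Bra012232 and Bra025823 share 1 Arabidopsis match, named 4-coumarate-CoA ligase, and both rose. Bra012232 had 47.6, 49.9 and 77.0 normalised reads in wild type shoots and 120.1, 141.4 and 117.2 in the mutant, a 2.17-fold rise (edgeR log2 change 1.12, SE 0.21). Wild type library C was nearer to the mutant than the other wild type libraries, though still below it. Bra025823 had 18.2, 14.2 and 9.37 in wild type shoots and 33.6, 48.1 and 45.9 in the mutant, a 3.05-fold rise (edgeR log2 change 1.60, SE 0.33). The authors' deposited table gives adjusted p = 6.85e-06 for Bra012232 and 0.000452 for Bra025823. With TMM scaling over the recovered genes neither met the table's limits any longer, at log2 changes of 0.69 and 1.17 in edgeR's quasi-likelihood test (adjusted p = 0.00336 and 0.00262). The coding length of Bra025823 is 3447 bases and that of Bra012232 is 1650, so the model of Bra025823 is longer than its partner from the same match.

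The ligases as a sum did not separate the strains. Summed per library, the 3 ligases had 132.6, 104.8 and 161.3 normalised reads in wild type shoots and 155.6, 196.3 and 167.0 in the mutant. The highest wild type library lay above the lowest mutant library, so the summed groups overlapped. The sum over the 5 recovered chalcone and hydroxylase genes went from 2774 ± 86.9 to 798.4 ± 29.4 (SD, n = 3 each), a 3.47-fold fall. It leaves out Bra008792 and Bra023441, which held 90.5% of the summed chalcone synthase base means in wild type shoots. Flavonoid 3'-hydroxylase alone gave 1086 of the wild type sum. Each of the 5 genes fell without overlap, so their sum could not overlap between the strains either.

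The recovered counts were also fitted anew at the authors' limits, for the 8 members with counts in both strains. edgeR called 6 of them lower, against 43.2% of the recovered genes, and 2 higher, against 56.7%. DESeq2 called the same numbers of members, against 43.0% lower and 55.9% higher. With TMM scaling edgeR called 6 lower, against 43.2%, and 0 higher, against 37.4%. The loss of the higher members came with a smaller share of higher genes among all recovered genes. Without wild type library A, 4 members were lower and 1 higher, against 40.2% and 53.3% of recovered genes. Without wild type library B the counts were 5 and 2, against 41.3% and 53.9%, and without wild type library C they were 5 and 1, against 41.0% and 53.1%. Every such loss of a lower member was a chalcone isomerase at the edge of the log2 limit. Without mutant library A there were 5 lower and 2 higher members, against 40.9% and 54.1%. Without mutant library B there were 5 and 1, against 40.0% and 51.9%, and without mutant library C there were 5 and 2, against 40.9% and 54.8%. The higher member lost was Bra012232 without wild type library A and Bra025823 otherwise.

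**Figure D2:**
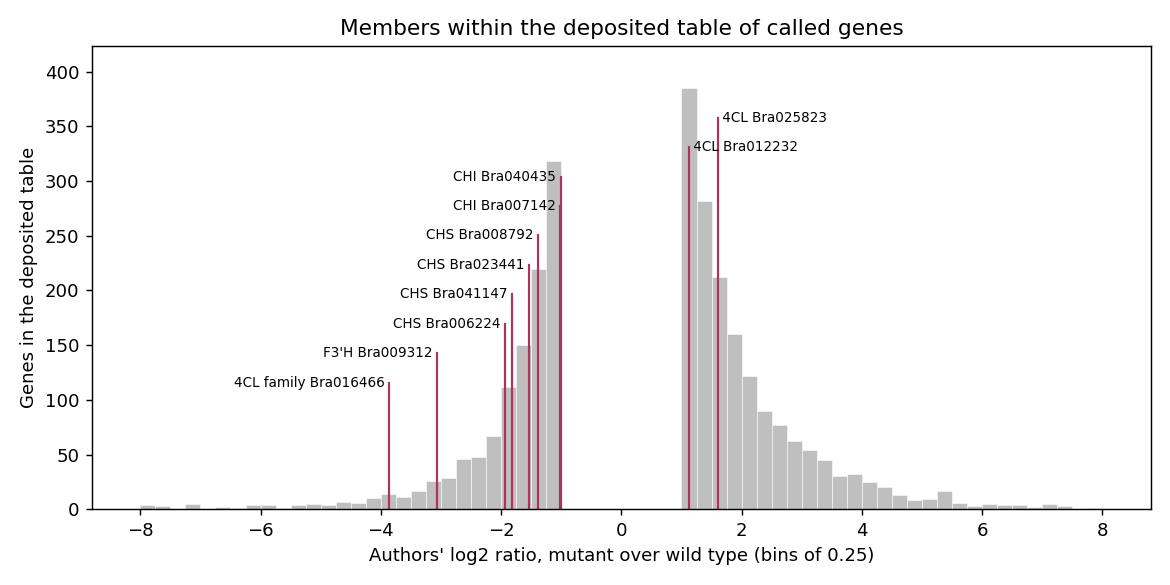
Histogram of the authors' log2 ratio of mutant over wild type for the genes of the deposited table with reads in both strains (bins of 0.25), with a red line at the value of each member, whose height has no meaning. The gap around 0 is the authors' limit of 1, and the chalcone isomerases stand beside its edge, while flavonoid 3'-hydroxylase and the ligase Bra016466 stand in the lower tail.

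Levels between genes were compared as normalised reads per kilobase of coding length. In the wild type the order ran from Bra008792 (3070) and Bra023441 (2680) to flavonoid 3'-hydroxylase (707), the isomerase Bra040435 (670), the synthase Bra006224 (549) and the isomerase Bra007142 (520). The short synthase Bra041147 (99.3) and the ligases Bra016466 (36.9), Bra012232 (35.2) and Bra025823 (4.04) followed. Flavonoid 3'-hydroxylase and Bra040435 overlapped between libraries, as did Bra006224 and Bra007142, and Bra016466 and Bra012232. The other neighbours did not overlap.

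In the mutant the most abundant synthases still led, at means of 1170 and 919 normalised reads per kilobase. The isomerases came next, at 333 for Bra040435 and 256 for Bra007142, ahead of the synthase Bra006224 at 143. Flavonoid 3'-hydroxylase had moved from place 3 to place 6, at 84.1, where it overlapped the ligase Bra012232 at 76.5. The ligase Bra016466 was lowest, at 2.54. The other neighbours among the recovered members did not overlap.

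**Figure D3:**
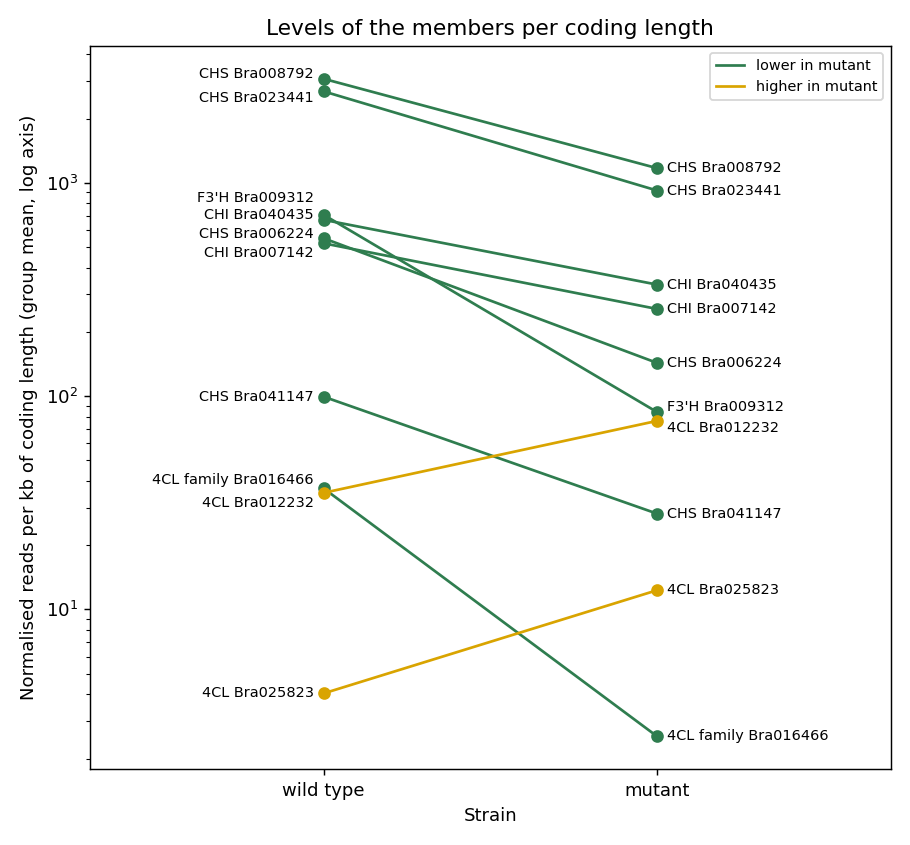
Mean normalised reads per kilobase of coding length (log axis) for each member in the wild type (left) and the mutant (right), with green lines for members lower and yellow lines for members higher in the mutant. Flavonoid 3'-hydroxylase crosses from 707 to 84.1, below both chalcone isomerases, and the ligases Bra016466 and Bra012232 start side by side and part.

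Ratios of reads between genes of the same library do not depend on size factors, and 6 such ratios were compared. The pairs were chosen with earlier results of these data known, so the ratios and their tests are descriptive only. The ratio of flavonoid 3'-hydroxylase to the synthase Bra006224 was 1.56, 1.81 and 1.63 in wild type libraries and 0.639, 0.779 and 0.879 in mutant libraries. The ratio was lower in every mutant library, with a log2 shift of -1.13 (two-sided exact permutation test, p = 0.1, adjusted p = 0.3). The smallest p that 3 against 3 libraries allow is 0.1, so no ratio could pass 0.05. Flavonoid 3'-hydroxylase against cinnamate 4-hydroxylase (Bra021636) showed the same pattern, with means of 1.99 ± 0.443 and 0.747 ± 0.204 in wild type and mutant (SD, n = 3 each, exact permutation p = 0.1, adjusted p = 0.3).

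The other ratios overlapped between the strains, with adjusted p from 0.84 to 0.9 in the exact permutation test. The ratio of the isomerases, Bra040435 to Bra007142, was 1.48 ± 0.199 in wild type shoots and 1.53 ± 0.306 in the mutant (SD, n = 3 each, exact permutation p = 0.9). The ratio of the short synthase to Bra006224 was 0.0950 ± 0.0181 and 0.107 ± 0.0269 (exact permutation p = 0.6). For the ligases of the same match, Bra012232 to Bra025823, the ratio was 2.61, 3.50 and 8.22 in wild type shoots and 2.55 to 3.57 in the mutant (exact permutation p = 0.5). Wild type library C alone set the high value there, from 74 against 9 reads.

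**Figure D4:**
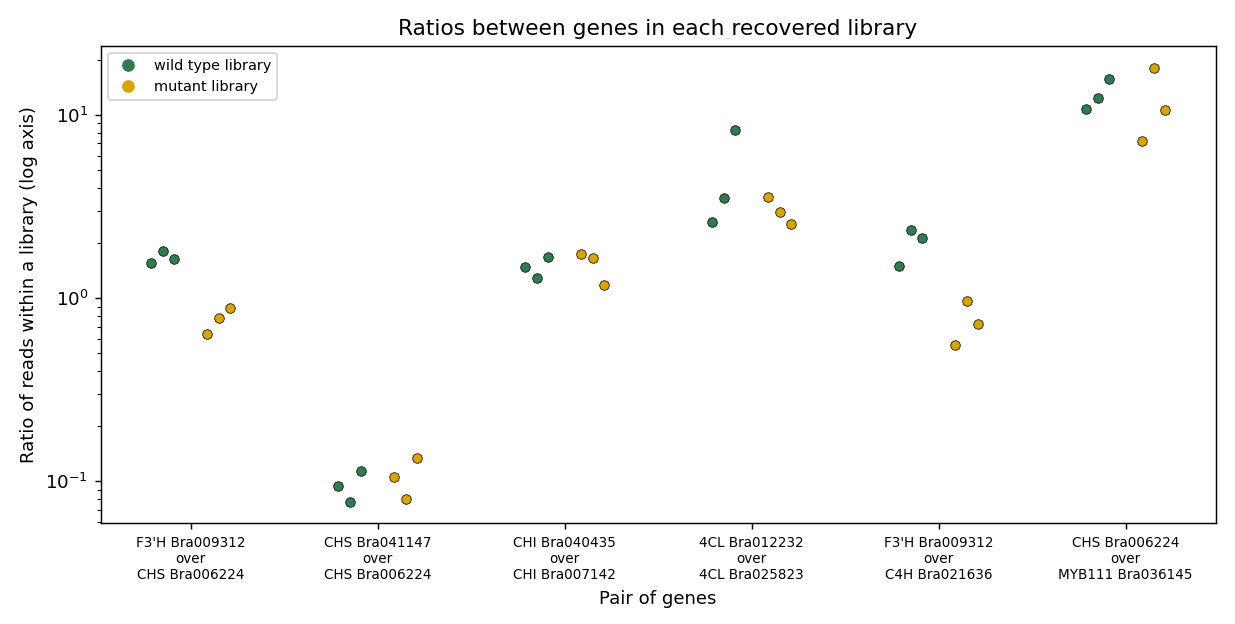
Ratio of reads between pairs of genes within each recovered library (log axis), with green points for wild type and yellow points for mutant libraries. Both ratios with flavonoid 3'-hydroxylase on top are separate between the strains, and the other 4 overlap.

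The spread between libraries of the members was set beside that of the table. For those at 20 or more normalised reads, the coefficient of variation ranged from 2.56% to 29.4% in wild type shoots and from 2.36% to 20.1% in the mutant. The median over recovered genes of the table at that level was 12.1% and 11.9%. Of the 8 members recovered in both strains, 6 had their highest wild type value in library C and 5 their highest mutant value in library B.

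Of 14 other genes matched to the lists of pathway neighbours, 6 were lower and 8 were higher in the authors' deposited table. These counts are near the shares over all genes listed, which were 40.3% lower and 59.7% higher. At the entry, the only match was cinnamate 4-hydroxylase (Bra021636), the enzyme that makes coumarate, with means of 561.0 ± 104 normalised reads in wild type and 176.9 ± 21.5 in mutant shoots (SD, n = 3 each), a 3.17-fold fall. No gene matched phenylalanine ammonia-lyase, and no gene matched the list of flavonoid transport. Genes outside the authors' limits were not analysed here.

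Among genes matched by name to later flavonoid steps, 2 fell and 1 rose. Dihydroflavonol 4-reductase (Bra027457), which leads towards anthocyanins, had 77.9, 62.1 and 46.8 normalised reads in wild type shoots and 21.1, 29.8 and 24.4 in the mutant. That is a 2.48-fold fall, near the falls of the chalcone synthases. An isoflavone reductase family gene (Bra011541) fell 2.55-fold from 254.5 ± 36.7 to 99.9 ± 5.11 (SD, n = 3 each). It was matched by its family name only, which does not show that it acts in a flavonoid step. FLS3 (Bra038648), a flavonol synthase by name, rose 7.07-fold at a low level, from 4.43 ± 3.55 to 31.3 ± 6.25 (SD, n = 3 each).

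The monolignol branch had 2 lower and 4 higher genes. A putative cinnamoyl-CoA reductase (Bra015740), which would reduce activated cinnamates towards lignin units, fell 2.07-fold from 563.5 ± 39.6 to 272.1 ± 57.3 (SD, n = 3 each). A gene with similarity to caffeic acid methyltransferase (Bra025874) fell from 432.9 ± 9.94 to 216.2 ± 10.7 (SD, n = 3 each). All 4 higher genes were laccases, enzymes that oxidise lignin units in the cell wall. LAC12 genes Bra009111 and Bra028760 reached 82.9 and 44.5 normalised reads in the mutant, laccase 3 (Bra034852) reached 62.1 and LAC5 (Bra017010) reached 59.9. Bra009111, Bra034852 and Bra017010 had only 2 reads each over the 3 wild type libraries. Their ratios of mutant over wild type were 123, 91.6 and 86.4, with 95% counting intervals that begin at 23.6 or more and reach up to 1020. Bra028760 had 12 wild type reads and rose 10.9-fold.

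**Figure D5:**
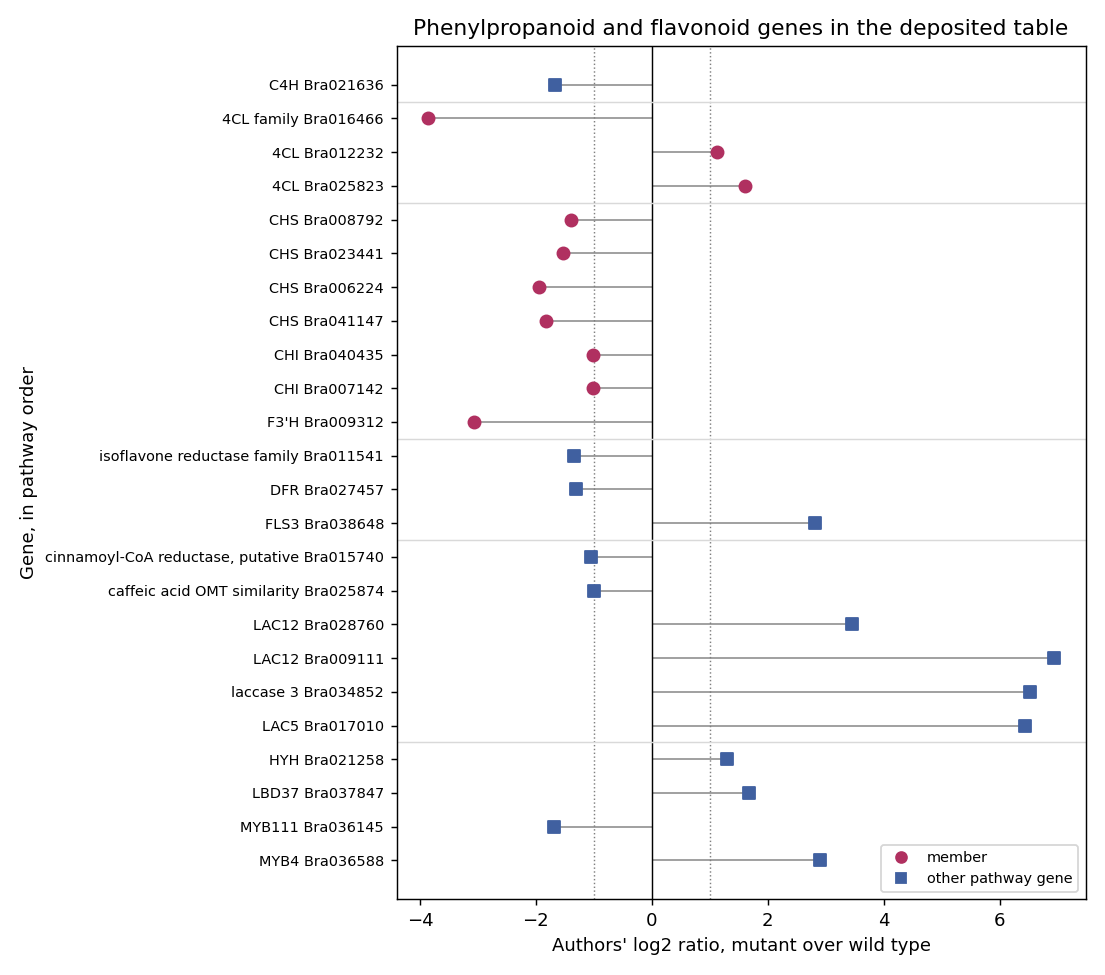
Authors' log2 ratio of mutant over wild type for the 10 members (red circles) and the 14 other pathway genes (blue squares). Genes are placed by name in pathway order from entry enzymes to regulators, with dotted lines at the authors' limit of 1. The steps from chalcone synthase to flavonoid 3'-hydroxylase lie on the lower side, and the ligases, later steps, monolignol genes and regulators on both.

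Of 4 matched regulators, 1 fell and 3 rose. MYB111 (Bra036145), which in Arabidopsis activates chalcone synthase and other flavonol genes, had 60.7, 49.9 and 44.7 normalised reads in wild type shoots and 24.0, 10.6 and 13.7 in the mutant. Its 3.22-fold fall was close in size to those of the chalcone synthases. The ratio of Bra006224 to MYB111 was 10.7, 12.4 and 15.6 in wild type libraries and 7.20, 18.1 and 10.6 in mutant libraries, which overlapped (exact permutation p = 0.7).

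MYB4 (Bra036588), which in Arabidopsis represses cinnamate 4-hydroxylase, had 14.2, 2.04 and 6.24 normalised reads in wild type shoots and 62.4, 67.4 and 38.1 in the mutant, a 7.48-fold rise. LBD37 (Bra037847), which in Arabidopsis represses anthocyanin genes, rose 3.18-fold from 129.9 ± 12.2 to 412.6 ± 53.6 (SD, n = 3 each). HYH (Bra021258), a relative of the light-response factor HY5, rose 2.44-fold from 192.2 ± 25.5 to 468.8 ± 26.5 (SD, n = 3 each). A link between the regulators and the chalcone genes was not tested.

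The share of organs and cell layers in a sample can differ between strains. Epidermis markers had 2 genes in the table, both higher, with CER1 (Bra032670), a wax enzyme of the epidermis, at 1378 and 6075 in the authors' deposited table. The summed base means of the epidermis list were 1421 in wild type shoots and 6175 in the mutant, nearly all from this gene. The other match is a CER1-like gene, at 42.4 and 99.9. No other marker of the list was among the genes listed, so the sum describes wax genes and not the epidermis as a whole. Root markers summed to 32.1 and 88.0 over 3 genes, of which 2 were higher and 1 lower. RHD2 went from 7.83 to 56.7 and MLP34 from 0.347 to 31.3. PERK13 went from 23.9, most of the wild type sum, to 0 reads in the mutant. Flower markers summed to 412.2 and 531.8 over 5 genes, of which 4 were higher and 1 lower. AGL42 fell from 339.1 to 141.3 and made up most of the wild type sum, so the sums mainly follow this gene and AGL80. The genes that rose were AGL80 from 52.6 to 297.4, AGL65 from 19.8 to 53.1 and the AGL9 homolog from 0.675 to 25.7. The AGL8 homolog also rose, from 0 reads in the wild type to 14.2. All 5 are named as agamous-like, and whether each marks flowers in this species was not tested. Seed markers summed to 18.4 and 73.1 over 2 genes, both higher. A gene related to late embryogenesis abundant proteins (Bra027957) went from 16.7 to 48.0. A glycine-rich protein or oleosin gene (Bra035603) went from 1.73 to 25.1. Whether either marks seeds in this species was not tested. The part of such shares in the values of the members was not tested.

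The genes with values most like flavonoid 3'-hydroxylase were sought by distance on the log2 scale over the 6 recovered libraries. The nearest of the 2619 recovered genes was JAZ6 (Bra008033), in Arabidopsis a repressor of jasmonate signalling, at a distance of 0.771 and with means of 995.0 and 124.2. A hypothetical protein gene (Bra013677) followed at 0.791 and a wall-associated kinase 2 gene (Bra025882) at 0.845. These 3 fell 8.01-fold, 7.14-fold and 8.03-fold.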

How the data were processed

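RNA from 3 wild type and 3 mutant libraries was sequenced. Per the submitters' processing notes, which assign no roles, the tools included DESeq 1.10.1, TopHat2 2.0.12 and Bowtie2 2.2.3. The sources used here give no genome build, annotation or read counter. The authors deposited 1 table, in which each gene had an adjusted p-value under 0.001 and a log2 ratio of 1 or more in size. The column names give a mean read count and a base mean for each group and do not describe the scaling. The deposited mean read count was taken as a signal before scaling. The deposited base mean was taken as a score, the same mean after scaling by size factors. The log2 ratio and the p-value with its adjusted value are the authors' own, deposited in the same table. All 2958 lengths were multiples of 3 and are coding lengths. The RefSeq gene table matched 0 of the identifiers, and neither coordinates nor sequences are given.

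Whole library counts were recovered as those whose sum equals 3 times the mean read count and whose scaled mean equals the base mean to 10 significant digits. Starting size factors came from genes with a single read and were refitted by least squares over genes with exactly 1 matching set. The final values were 0.988, 0.983 and 0.961 for wild type libraries and 1.04, 1.04 and 1.02 for mutant libraries. Exactly 1 set matched for 2933 wild type and 2619 mutant gene entries. The method was tested on simulated libraries. Recovered counts were fitted with edgeR 4.0.16 (quasi-likelihood test, Benjamini-Hochberg adjustment) with these size factors, and with DESeq2 1.42.0 as an alternative. SEs were computed from the log2 changes and F statistics. Because the table holds selected genes, these fits give sizes and errors, not independent evidence of a difference. The sizes can be too large for the same reason. The SEs and intervals can be too narrow, since the spread was estimated from these genes alone. Intervals for genes with 3 or fewer reads in a group are exact 95% binomial (Clopper-Pearson) and cover counting error only. Ratios within libraries were compared by exact permutation over samples.

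All members are named. Pathway genes were matched by words in the annotation text, with every gene of a list of 8 or fewer named, and the nearest 3 genes to the most abundant fully recovered member are given (distance on log2 of normalised reads plus 1). Members, lists and ratios were chosen with earlier results of these data known.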

Additional observations from a re-analysis of the deposited data

How the results depend on the processing

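No paired analysis was possible because nothing ties a recovered library to a labelled replicate. Of 92 member log2 values recomputed without scaling, with a pseudocount of 1, with edgeR, TMM or DESeq2, or without 1 library, 0 changed direction. All values from a fit stayed past 0.05, which says little because the genes were selected (adjusted p from 2.28e-105 to 0.00336). TMM moved the median log2 change of the recovered genes by -0.43. With it, edgeR called 980 genes higher and 1131 lower at the authors' limits, against 1484 and 1131 without it, and 6 members lower and 0 higher. TMM takes genes already called as its reference.

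With a log2 limit of 2, 2 members were lower and 0 higher, and of the pathway neighbours 0 were lower and 6 higher. Of all genes listed, 13.3% were lower and 24.6% higher at that limit. At an adjusted p of at most 1e-10, 6 members were lower, against 22.9% of all genes listed, and 0 higher, against 31.7%. Without neighbours matched by a shared word, 3 were lower and 8 higher, against 40.3% and 59.7% of all genes listed. On the 8 recovered members edgeR and DESeq2 each called 6 lower and 2 higher at the authors' limits. The shares of all recovered genes were 43.2% and 56.7% in edgeR, and 43.0% and 55.9% in DESeq2. Leaving out 1 library gave 4 to 5 lower and 1 to 2 higher, against 40.0% to 41.3% and 51.9% to 54.8% of recovered genes. Fewest were called without wild type library A. Library depth is not known from the table, and members under 20 reads are limited by counting error.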
